A study of Mus musculus with 6 samples.

Results

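The genes described here encode proteins that the fetal liver secretes into the plasma. They are 10 listed genes: Afp, Alb, Gc, Ttr, Rbp4, Ahsg, Fetub, Ambp, Itih2 and Vtn. Their probes were taken by gene symbol, current or former, from a bead array table, and a probe was used where its detection p-value was below 0.05 on at least 3 of 6 arrays. Of the 11 probes found, 8 were used, which left 7 of the 10 genes with a level, among 12262 genes with a level in all. All 8 were detected on all 6 arrays, so none passed the detection filter through 1 group alone.

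Total RNA came from whole livers of mouse embryos of mixed C57/Bl6:129Sv background at E13.5, in mid gestation. In the double transgenic group, with 3 arrays, the embryos carried R26-LSL-KITD816V, a KIT receptor transgene with the D816V substitution placed in the ROSA26 locus behind a stop cassette that Cre removes, together with Vav-iCre. The control group, with 3 arrays, held single transgenic livers: replicate 1 carried Vav-iCre alone, and replicates 2 and 3 carried R26-LSL-KITD816V alone, so every embryo of the study carried at least 1 of the transgenes. Vav is a gene of blood cells, so Cre in this line is made mainly in blood cells and their precursors, not in the epithelial cells that make plasma proteins. The labels do not say whether each array held a separate liver, and the spread that the p-values rest on may therefore be partly technical. The controls held positions A to C of 1 chip and the double transgenic group positions D to F, and chip position and group cannot be told apart.

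Hepatoblasts are the epithelial precursors of hepatocytes and bile duct cells, and in the fetal liver they lie among a far larger mass of forming blood cells. They make most proteins of the fetal plasma: binding proteins for fatty acids, retinol, thyroid hormone and vitamin D, inhibitors of proteases, and proteins that bind matrix and mineral. Alpha-fetoprotein dominates fetal plasma and gives way to albumin, its close relative, around and after birth. In RNA of a whole liver, fewer cells of a type and less RNA per cell cannot be told apart.

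All 7 measured genes were lower in the double transgenic livers, by 2.40-fold for Afp to 5.76-fold for Vtn on the normalized scale. All 7 fell at an adjusted p below 0.05 (limma, Benjamini-Hochberg over 12262 genes), against 6.42% of all genes called lower, 2.53% called higher and 8.95% called in either direction. In all 7 every double transgenic array lay below every control array, a separation found in that direction for 13.7% of all genes. Counted by probe, 8 of 8 fell, against 5.78% of the 17855 probes used. The median difference of the 7 genes, double transgenic minus control, was -2.04 on the log2 scale, and that of all genes tested was 0.07. The share of all genes with a larger fall was 0.726% for Vtn and 4.27% for Afp, and the other 5 genes lay between.

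**Figure D1:**
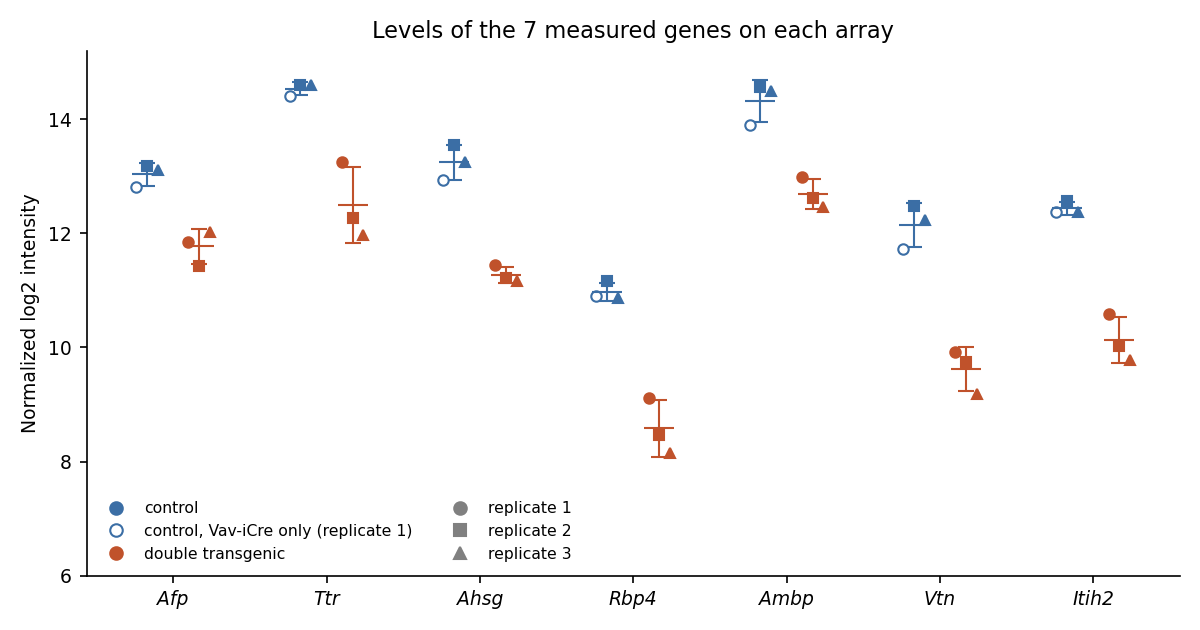
Normalized log2 intensity of the 7 measured genes on each of the 6 arrays. Points are single arrays (blue control, orange double transgenic, shape by replicate number, open circle the control with Vav-iCre alone), the wide bar is the group mean and the whiskers are 1 SD (n = 3). For each gene the orange points lie below the blue ones, with the narrowest gap for Afp (0.78) and the widest for Vtn (1.80).

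Of the albumin family, Afp alone had a usable probe. Afp encodes alpha-fetoprotein, the main binding protein of fetal plasma. Its normalized log2 level on control replicates 1, 2 and 3 was 12.81, 13.18 and 13.11, while the double transgenic arrays, in the same order, gave 11.85, 11.44 and 12.02. The highest double transgenic array was 0.78 below the lowest control. The difference was -1.26 (SE 0.21, 95% interval -1.76 to -0.77, n = 3 per group, limma adjusted p = 0.00801), from 13.04 ± 0.20 to 11.77 ± 0.30 (SD).

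Alb, which encodes albumin, and Gc, which encodes the vitamin D binding protein, each had 1 probe, and neither probe was detected on any array. The deposited signal of the Alb probe was 137, 137 and 125 in the controls and 137, 132 and 130 in the double transgenic livers. The Gc probe gave 115, 126 and 124 in the controls and 120, 129 and 132 in the double transgenic livers. Both lay below the median signal of their own array on all 6 arrays, the medians being 137 to 144. For these genes no level, fold or direction is given, and a probe that stays at background does not show that the gene is silent.

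**Figure D2:**
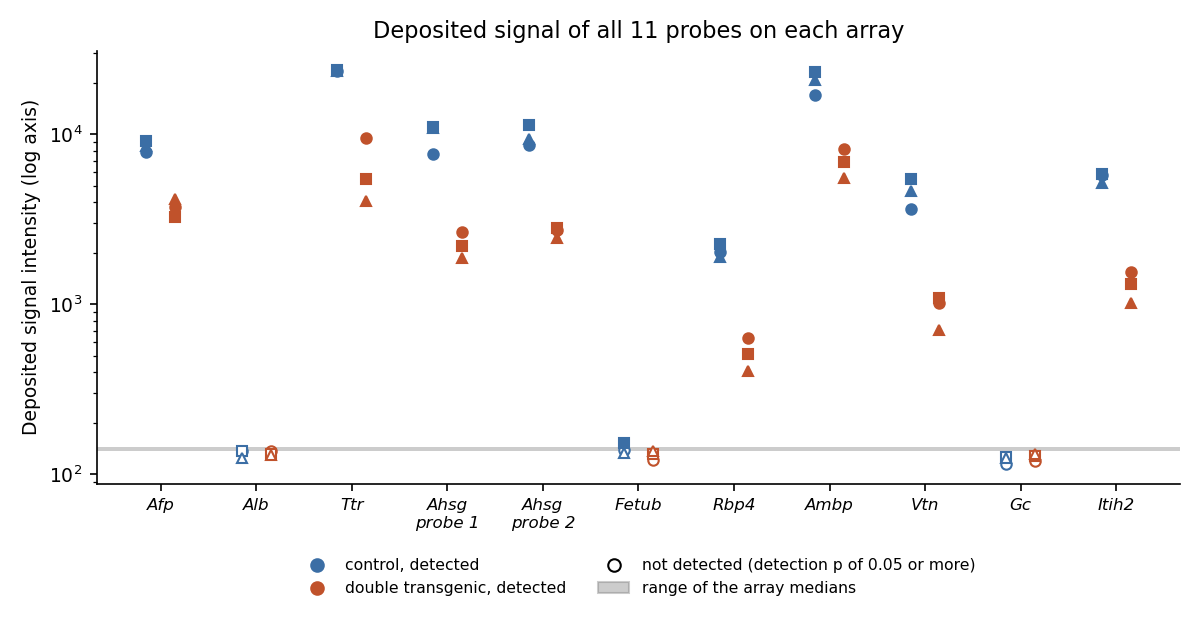
Deposited signal intensity, not normalized and on a log axis, of all 11 probes on each array, with the range of the array medians as a grey band. Filled points were detected at a detection p below 0.05 and open points were not. Apart from 1 filled Fetub point at 154, the probes of Alb, Fetub and Gc sit at background with open points, and the other 8 probes run from 407 to 23770.

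Ttr and Rbp4 encode partners that travel together: transthyretin carries thyroid hormone and holds retinol-binding protein in the circulation, and retinol-binding protein carries vitamin A. Ttr stood at 14.41, 14.60 and 14.60 in the controls and at 13.25, 12.26 and 11.97 in the double transgenic livers, with replicates always in the order 1, 2 and 3. The double transgenic values spread more widely than the controls, with SDs of 0.67 and 0.11, but did not reach them. Ttr fell by 2.04 (SE 0.31, 95% interval -2.75 to -1.32, adjusted p = 0.00506). The deposited Ttr signal was 23447, 23770 and 23536 in the controls and 9494, 5474 and 4063 in the double transgenic livers. The highest normalized level of any probe was 15.27, so the Ttr controls, with a mean of 14.53, lay near the top of the scale.

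Rbp4 stood at 10.90, 11.16 and 10.86 in the controls and at 9.12, 8.47 and 8.15 in the double transgenic livers. Its groups were 1.74 apart at their nearest values. It fell by 2.39 (SE 0.26, 95% interval -2.99 to -1.79, adjusted p = 0.00151), which is 5.24-fold. On each array the log2 intensity of Ttr less that of Rbp4 was 3.51, 3.44 and 3.74 in the controls and 4.13, 3.79 and 3.82 in the double transgenic livers, so Ttr fell by 0.35 less than Rbp4. An exact two-sided permutation test gave p = 0.10, the smallest that 3 against 3 arrays allow, and without background correction the gap was 0.06 (exact p = 0.9).

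The fetuins, Ahsg and Fetub, encode cystatin-like plasma proteins, and fetuin A, the product of Ahsg, is known for keeping calcium phosphate from precipitating. Ahsg stood at 12.94, 13.56 and 13.25 in the controls and at 11.44, 11.21 and 11.16 in the double transgenic livers. The double transgenic arrays lay close together (SD 0.15), and the nearest control was 1.50 above them. Ahsg fell by 1.97 (SE 0.21, 95% interval -2.45 to -1.50, adjusted p = 0.00146). Ahsg was the only measured gene of the 10 with a second probe, and by that probe it was at 12.77, 13.52 and 13.49 in the controls and at 11.39, 10.85 and 10.75 in the double transgenic livers. The second probe fell by 2.26 (SE 0.27, adjusted p = 0.00162 over all probes used), so the 2 probes gave the same direction. The Fetub probe was detected on 1 of 6 arrays, control replicate 2, with a deposited signal of 154 there and 122 to 138 on the other 5, and is given no fold.

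Ambp and Itih2 encode parts of the inter-alpha-trypsin inhibitor family. The Ambp product is cut into alpha-1-microglobulin, a heme and radical scavenger, and bikunin, a protease inhibitor, and the Itih2 product is a heavy chain that is joined to bikunin and can be passed to hyaluronan. Ambp stood at 13.90, 14.57 and 14.49 in the controls and at 12.99, 12.62 and 12.46 in the double transgenic livers. Its lowest control was replicate 1, the Vav-iCre liver, and it was still 0.91 above the highest double transgenic array. Ambp fell by 1.63 (SE 0.24, 95% interval -2.18 to -1.08, adjusted p = 0.00422). Like those of Ttr, its controls lay near the top of the scale, with a mean of 14.32 against a highest level of 15.27.

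Itih2 stood at 12.38, 12.57 and 12.37 in the controls and at 10.58, 10.03 and 9.78 in the double transgenic livers, with 1.79 between the groups. It fell by 2.31 (SE 0.23, 95% interval -2.84 to -1.78, adjusted p = 0.0014). The log2 intensity of Ambp less that of Itih2 was 1.52, 2.00 and 2.11 in the controls and 2.41, 2.58 and 2.68 in the double transgenic livers. Every double transgenic value was above every control value, a gap of 0.68 by which Ambp fell less than Itih2. The exact two-sided permutation test gave p = 0.10, the smallest possible, and 0.10 adjusted over the 2 pairs that could be compared.

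Vtn encodes vitronectin, a glycoprotein of plasma and matrix that binds integrins and holds plasminogen activator inhibitor 1 in its active form. It stood at 11.73, 12.47 and 12.23 in the controls and at 9.93, 9.75 and 9.18 in the double transgenic livers. The groups were 1.80 apart, the widest gap of the 7 genes. Vtn fell by 2.53 (SE 0.27, 95% interval -3.14 to -1.91, adjusted p = 0.00146), which is 5.76-fold with an interval of 3.76 to 8.82.

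The order of the arrays within a group was shared by most genes. Of the controls, replicate 1 had the lowest level of 5 genes, while Rbp4 and Itih2 were lowest on replicate 3. Of the double transgenic arrays, replicate 3 had the lowest level of 6 of the 7 genes and replicate 1 the highest level of the same 6, or of 5 with median scaling, where Vtn was highest on replicate 2. Afp had a different order, with its highest double transgenic level on replicate 3 and its lowest on replicate 2. The level of Afp less the mean of the other 6 genes was 0.10, 0.03 and 0.15 in the controls and 0.63, 0.71 and 1.57 in the double transgenic livers. Afp thus fell by 0.88 less than the mean of the others (exact two-sided permutation p = 0.10, the smallest possible), a comparison chosen after the values were seen. Without double transgenic replicate 3 this gap was 0.58, more than 1.5 times smaller.

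**Figure D3:**
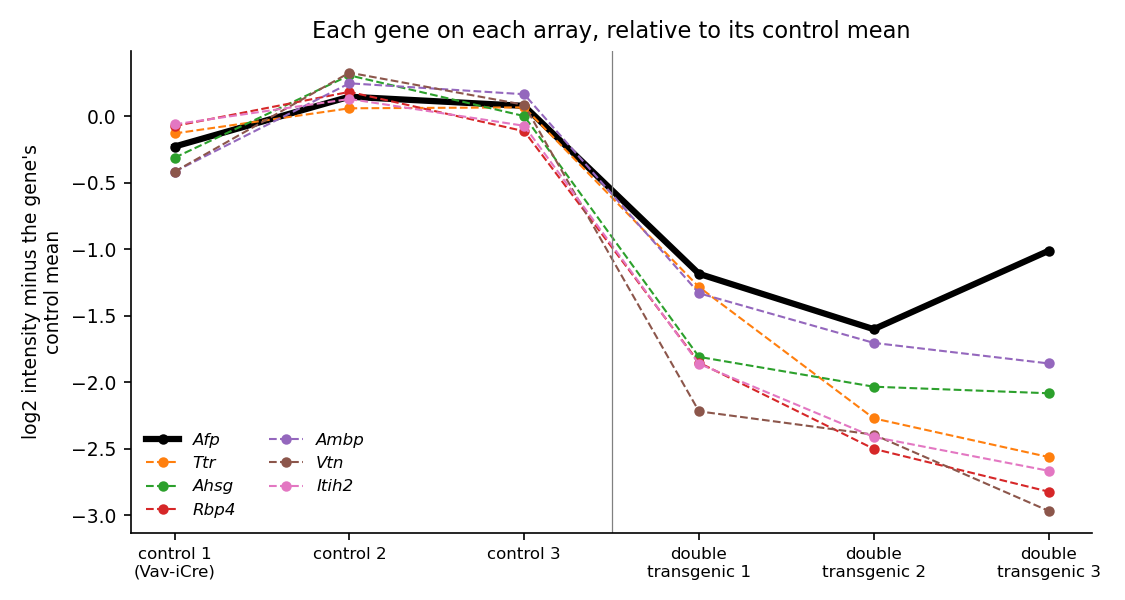
Log2 intensity of each measured gene on each array, less the mean of that gene over the 3 controls. The lines join the points of 1 gene and carry no order of replicates. On double transgenic replicate 3 the 6 dashed genes reach their lowest values while Afp, the solid black line, stands at its highest double transgenic value.

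The 2 control genotypes were compared because the control group mixes them. All 7 genes were higher in the R26-LSL-KITD816V livers than in the lone Vav-iCre liver, by 0.09 for Itih2 to 0.62 for Ambp and Vtn, with a median of 0.34 against -0.01 over all genes. This comparison rests on 1 Vav-iCre array, so a missed threshold does not show that the genotypes are alike. None of the 7 passed in a limma fit of 3 genotypes (0 at adjusted p below 0.05 and 0 at unadjusted p below 0.05), in which 0% of 12262 genes passed (0 in all) and 1190 had an unadjusted p below 0.05. Set against the R26-LSL-KITD816V livers alone, the log2 differences of the 7 genes in the double transgenic livers ran from -1.38 for Afp to -2.73 for Vtn. Set against the Vav-iCre liver alone, Itih2 differed by -2.25, Rbp4 by -2.32, Vtn by -2.11 and Ahsg by -1.66. Against that liver Ttr differed by -1.91, Ambp by -1.21 and Afp by -1.04. These last values describe 1 liver and not its genotype. No calls are given for these 2 comparisons, as the share of all genes called in them was not counted.

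Other plasma protein genes of the liver moved in the same direction. Of 41 listed genes beside the 10, 30 had a level, of which 25 fell and 1 rose, and their median log2 difference was -2.16. Here and below, differences are of log2 intensity, double transgenic minus control. For the counts here and below without a changed setting or a left-out array, the share of all genes was 6.42% called lower and 2.53% called higher. Among plasma carriers 8 of 10 fell, with a median of -2.11. Apoh, a phospholipid-binding glycoprotein, differed by -3.06 (SE 0.21, adjusted p = 0.000849), Hpx, which encodes the heme carrier hemopexin, by -2.60 (SE 0.27) and Afm, an albumin relative that carries vitamin E, by -2.46 (SE 0.21). All 3 measured heavy chains beside Itih2 fell: Itih1 differed by -2.58 (SE 0.23), Itih3 by -2.22 (SE 0.27) and Itih4 by -1.90 (SE 0.33). Of the cystatin superfamily, to which the fetuins belong, the kininogen genes Kng1 (log2 difference -2.30) and Kng2 (-2.41) fell, and Cst3 (-0.34) did not pass (adjusted p = 0.40). Kng1 and Kng2 are close copies, so a probe may read both. Without background correction Apoh differed by -2.14, Afm by -1.24 and Kng2 by -1.27, folds more than 1.5 times smaller, while none of the 7 genes moved that far.

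Of the other secreted proteins 12 of 14 fell and 1 rose, with a median of -2.05. Plg, which encodes plasminogen, differed by -2.70 (SE 0.30), the prothrombin gene F2 differed by -1.94 (SE 0.21), and Cpn2, a subunit of carboxypeptidase N, was 3.99-fold lower. Without background correction the log2 difference of Cpn2 was -0.84. The gene that rose was Igfbp1, which encodes a secreted binding protein of insulin-like growth factors. Igfbp1 stood at 5.82, 6.17 and 6.13 in the controls and at 7.03, 8.11 and 7.93 in the double transgenic livers. Its groups did not overlap, and it rose by 1.65 (SE 0.29, adjusted p = 0.00944), or by 0.84 without background correction.

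**Figure D4:**
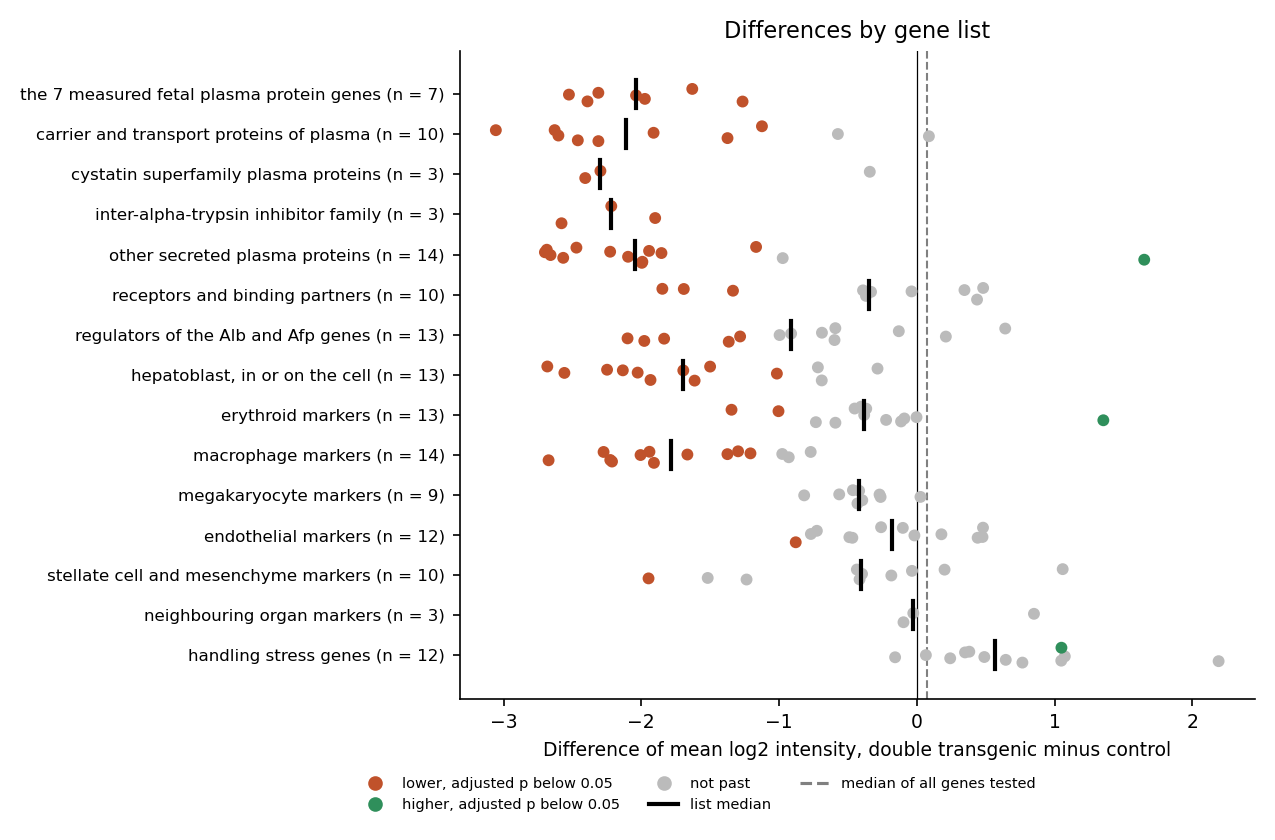
Difference of mean log2 intensity, double transgenic minus control, of each measured gene of each list. Orange points passed as lower, green points as higher and grey points did not pass, the black bar is the list median and the dashed line is the median of all genes tested (0.07). The plasma protein lists have medians between -2.30 and -2.04, with Igfbp1 as the green point at 1.65.

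Hepatoblast genes whose products stay in or on the cell fell in 10 of 13 measured members, with a median of -1.70. Of those 10, Hpd was detected on 0 of 3 double transgenic arrays and passed the detection filter through the controls alone. The glucose transporter gene Slc2a2 differed by -2.68 (SE 0.17) and Tm4sf4, a membrane protein gene, by -2.25 (SE 0.23). Without background correction these were -1.58 and -1.27, and Slc2a2 was -1.73 by the mean of its probes. Dlk1, a surface protein that marks hepatoblasts, differed by -1.02, and the epithelial genes Krt8 and Cdh1 by -2.03 and -1.70. Dlk1, Krt8 and Cdh1 are named as defining markers with their values known. All 3 were detected on every array of both groups. Of the same list, Met, Slco1b2, Epcam and Lgr5 were not detected on any array, and Cps1 was detected on at most 1. These have no level, and a probe at background does not show that its gene is silent.

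Among known regulators of the albumin and alpha-fetoprotein genes 5 of 13 fell (median -0.91), and 1 of the 5, Cebpa, passed the detection filter through the controls alone. Hnf4a, a nuclear receptor that drives many liver genes, differed by -2.10 (SE 0.28, adjusted p = 0.00289), Foxa3, a forkhead factor, by -1.98 (SE 0.23). Cebpa, a bZIP factor gene, also fell, but its probe was detected on 3 of 3 control and 0 of 3 double transgenic arrays, and no size is given for it. The count was 3 without control replicate 2 (455 of 12262 genes lower), without control replicate 3 (487) or without double transgenic replicate 2 (487). It was 2 of 8 with a stricter filter on dim probes (447 of 9018 genes lower), and 9 when arrays were weighted (1511 of 12262). Of receptors and partners of the plasma proteins 3 of 10 fell (median -0.35). Fcgrt, the receptor that returns albumin to the circulation, differed by -1.85 (SE 0.22), Itgb5, a subunit of an integrin that binds vitronectin, by -1.69 (SE 0.23), and Asgr2, a subunit of the receptor for desialylated glycoproteins, by -1.33 (SE 0.24, adjusted p = 0.0114). The call of Asgr2 was lost without control replicate 3 (-1.17, adjusted p = 0.0514), and without background correction its difference was -0.53. The main subunit partner of Itgb5, Itgav, differed by -0.04 and Lrp2, an uptake receptor of kidney and yolk sac for several of these proteins, by -0.37. Each had 1 of 4 probes used, and both probes were dim. The Itgav probe was detected on 2 of 3 arrays of each group, and the Lrp2 probe on 3 of 3 control and 1 of 3 double transgenic arrays. Values this close to background do not show that these 2 genes were unchanged.

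Markers of other cells in the liver moved to different degrees, and their part in the falls of the plasma protein genes was not tested. With 6.42% of all genes called lower, a fall in 1 of 10 or 1 of 12 markers is near the share of all genes. Macrophage markers fell in 11 of 14 members, with a median of -1.79 and a summed normalized intensity of 10075 to 10297 in controls and 2199 to 4195 in double transgenic livers. With the stricter filter 6 of 10 macrophage markers fell, against 447 of 9018 genes. Erythroid markers fell in 2 of 13 (Alas2 and Trim10) and rose in 1 (Hba-x), with a summed intensity of 147245 to 160264 in controls and 110721 to 152258 in double transgenic livers. Without control replicate 2, without control replicate 3 or without double transgenic replicate 2 no erythroid marker fell, and without control replicate 2 the call of Hba-x was lost too. Endothelial markers fell in 1 of 12, Lyve1, a call lost when any array but double transgenic replicate 1 was left out. The summed intensity of all 12 was 6363 to 7531 in controls and 7145 to 9052 in double transgenic livers. Stellate cell and mesenchyme markers fell in 1 of 10, Reln, or in 3 without double transgenic replicate 1, where 944 of 12262 genes fell. Their summed intensity over all 10 was 8437 to 10887 in controls and 3195 to 8447 in double transgenic livers. None of 9 megakaryocyte markers passed (summed intensity 11104 to 15409 against 6591 to 14106). The erythroid marker Epb42, the macrophage marker Cd5l and the stellate cell and mesenchyme markers Lhx2 and Hand2 were not detected on any array.

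Of 12 markers of neighbouring gut, pancreas, kidney and heart 3 had a level, and none of those passed (82.6 to 222 against 112 to 257). Cdx2, Pdx1, Ptf1a, Pax8, Nkx2-5, Myh6 and Vil1 were not detected on any array. The summed intensity of the 7 plasma protein genes was 62591 to 84335 in controls and 17756 to 27310 in double transgenic livers. Of 12 handling stress genes, 1 rose (Junb at 1.05), and the list median was 0.57. In 6 of the 12 every double transgenic array lay above every control array, against 1818 of all 12262 genes. The count that rose was 5 without double transgenic replicate 1, where 453 of 12262 genes rose. Without control replicate 3 the count was 0, where 107 genes rose. The part of handling in the results was not tested.

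Several of the 10 genes lie beside relatives in the genome, by the RefSeq gene order of GRCm38.p6. On chromosome 5 Alb, Afp and Afm follow each other, and Afp and Afm fell, while Ankrd17 on the other side of Alb, a widely expressed gene, differed by 0.23 (adjusted p = 0.541). On chromosome 16 the order is Dnajb11, Ahsg, Fetub, Hrg and Kng2. Ahsg and Kng2 fell, Fetub and Hrg had no usable probe, and Dnajb11, which encodes a chaperone of the endoplasmic reticulum, differed by 0.0016 (adjusted p = 0.999). Beside Itih2 on chromosome 2, Kin differed by 0.05 (adjusted p = 0.911). Other neighbours did change: Dsg2, a desmosome cadherin gene beside Ttr, differed by -1.52 (adjusted p = 0.0133) and Slc46a1, a folate transporter gene near Vtn, by -1.44 (adjusted p = 0.0409). Adamts3, a procollagen protease gene near Gc, rose by 1.26 (adjusted p = 0.0495), and Pde6c beside Rbp4 differed by -1.99 without passing (adjusted p = 0.0553).

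Promoter windows of 9 of the 10 genes were found in the RefSeq table of GRCm38.p6, each from 250 bases before to 50 after an annotated start, and 3 are printed because their genes span the range of falls. They are written 5′ to 3′ on the strand of the gene. Capitals mark matches, on either strand, to letters typical of the liver factors HNF1, FOXA (TGTTTGC or TGTTTAC) and C/EBP (TTGCNNAA), and forward matches to a TATA box (TATAAA). The windows are Afp at chr5:90490464-90490763 (plus strand), Ahsg at chr16:22891765-22892064 (plus strand) and Vtn at chr11:78498870-78499169 (plus strand).
Afp: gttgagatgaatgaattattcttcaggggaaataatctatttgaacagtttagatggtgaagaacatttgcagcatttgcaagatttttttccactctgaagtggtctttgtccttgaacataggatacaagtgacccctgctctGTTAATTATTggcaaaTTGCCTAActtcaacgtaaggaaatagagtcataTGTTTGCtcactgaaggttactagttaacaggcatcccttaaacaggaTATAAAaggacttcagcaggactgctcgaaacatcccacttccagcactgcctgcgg
Ahsg: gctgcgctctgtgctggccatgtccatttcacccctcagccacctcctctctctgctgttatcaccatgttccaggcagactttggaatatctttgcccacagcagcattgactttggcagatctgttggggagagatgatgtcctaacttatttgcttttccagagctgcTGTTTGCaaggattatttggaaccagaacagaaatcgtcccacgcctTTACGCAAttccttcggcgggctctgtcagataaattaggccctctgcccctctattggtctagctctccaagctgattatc
Vtn: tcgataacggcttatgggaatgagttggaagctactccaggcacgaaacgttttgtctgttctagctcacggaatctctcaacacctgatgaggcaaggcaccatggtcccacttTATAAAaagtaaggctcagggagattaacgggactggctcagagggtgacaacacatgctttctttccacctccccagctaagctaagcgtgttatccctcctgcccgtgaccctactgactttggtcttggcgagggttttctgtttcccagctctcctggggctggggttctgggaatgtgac

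Counted from the annotated start, the Afp window held HNF1 letters at -105, C/EBP letters at -89, FOXA letters at -55 and TATAAA letters at -7. The Ahsg window held FOXA letters at -79 and C/EBP letters at -32. The Vtn window held none of the liver factor letters, and TATAAA letters at -135. Of the genes not printed, Rbp4 and Itih2, which differed by -2.39 and -2.31, held C/EBP letters. Ambp, which differed by -1.63, held FOXA letters, and so did Rbp4, at -241 in another of its windows. The counts below are of genes, of which Rbp4 had more than 1 window, while the shares are of windows. A link between these letters and the size of a fall was not tested. Over the 6 measured genes with a window, TGTTTGC was found in 3 (Afp, Ahsg and Ambp) against 5.07% of 32851 windows of all genes, and TTGCNNAA in 4 (Afp, Ahsg, Rbp4 and Itih2) against 10.8%. TGTTTAC was found in 1 (Rbp4, against 3.65%), the HNF1 letters in 1 (Afp, against 0.399%), TATAAA on either strand in 3 (Afp, Rbp4 and Vtn, against 13.6%), and AAAGTCCA, for HNF4, in none (against 1.25%). Matches to different motifs did not overlap. Such matches are a description of letters and not of binding.

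The genes whose levels over the 6 arrays were most like the mean profile of the 7 were St6gal1, a sialyltransferase gene, Bhmt2, a homocysteine methyltransferase gene, Masp1, a protease of the complement lectin pathway, Gja4, which encodes a gap junction protein, and Slc27a2, a fatty acid transporter and acyl-CoA synthetase gene. Their Pearson correlation with that profile was between 0.9987 and 0.9994 over 6 arrays, all from the same chip, and rests mainly on the difference between the groups. The 4 that were detected on every array fell by 1.93 for St6gal1 to 3.00 for Bhmt2 on the log2 scale. Without background correction Bhmt2 differed by -1.96 and Masp1 by -1.37. Gja4 also fell, but its probe stayed below detection in all 3 double transgenic livers, and no size is given for it. The 7 genes themselves correlated with their mean profile at 0.954 for Afp to 0.994 for Ahsg and Itih2.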

How the data were processed

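Total RNA of fetal liver was labelled as biotinylated cRNA and read on 6 Illumina bead arrays, per the labels' protocols. The deposited table holds signal intensity per probe, linear and not normalized between arrays, and a detection p-value, both deposited by the authors, per the file headers. The submitters' processing notes name GenomeStudio without a version. The value table deposited by the authors, also intensity, was within 0.303% of a quantile normalization of the deposited signal. Its medians were 141 on each array. Whether background was subtracted upstream is not stated. The lowest deposited signal of an array was 103 to 109, so the deposited values are not centred on 0 at background.

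In R 4.3.3 with limma 3.58.1, background was corrected with neqc (negative controls inferred from detection p-values, offset 16), followed by quantile normalization and log2. Probes detected at p below 0.05 on at least 3 of 6 arrays were kept (17855 of 45281), and each gene was represented by its brightest kept probe. Symbols were updated through RefSeq GRCm38.p6 (8359 probes). Groups were compared in 2-sided moderated tests (lmFit, eBayes), and p-values were adjusted by Benjamini-Hochberg over 12262 genes, with 0.05 as the threshold. Folds are 2 to the power of the log2 difference. Each array detected 38.1% to 39.5% of its probes, and the number of arrays limits the precision. The group fit and the choice of the brightest probe were tested on simulated log2 levels, and the permutation test on made-up values. Background correction, normalization, the detection filter and the symbol update were not tested in this way.

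The genes, lists and tests were chosen with earlier results of these data known. The rule named all 10 genes, of each list that is no cell type marker list up to 3 that passed, by smallest adjusted p, any that passed against the list's median, the markers at background and the 5 genes most like the profile. Slc2a2, Tm4sf4, Cst3, Itgav, Lrp2, Dlk1, Krt8, Cdh1, the single markers that passed, and the genome neighbours were named outside this rule, with their values known. The values of 1 gene of these lists, counted among the 33 named genes, are not reported here. Comparisons of Afp with Alb and of Ahsg with Fetub were planned and could not be made, as Alb and Fetub had no usable probe. Alternatives covered normalization, background, filters, probe choice, moderation, weights, a replicate block and leaving out arrays. Both groups are numbered 1 to 3 in the titles, the only source of a pairing. Deviations from the group mean correlated at 0.536, 0.283 and 0.206 between same-numbered arrays, over the limit of 0.1. Differently numbered arrays correlated at -0.439 to 0.371, with the highest for control 3 and double transgenic 2. As every same-numbered pair passed the limit, the number was used as a block in 1 alternative.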

Additional observations from a re-analysis of the deposited data

How the results depend on the processing

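All 7 measured plasma protein genes were called lower under each of 18 alternatives, with 8 of 8 probes under each of 17. The highest adjusted p was 0.046, for Afp without control replicate 2 (limma). The median of the 7 was -2.42 to -1.92 when 1 array was left out and -2.48 without replicate 1 of both groups. For the 33 named genes, 588 pairs of gene and alternative kept the direction, and 1 call was lost, that of Asgr2. Beside the 7, most of these were picked in the same data for a small adjusted p or for likeness to the profile. Their kept calls are therefore no test of them. Of genes named outside the 33, Lyve1, Alas2, Trim10, Hba-x and Junb each lost their call when some single array was left out. The other secreted genes called lower numbered 21 to 26 (25 as reported), and hepatoblast genes in or on the cell 8 to 11 (10). All genes called lower ran from 447 of 9018 with the stricter filter to 1511 of 12262 with arrays weighted. Of all genes, 1097 changed (8.95%). With the replicate number as a block 1743 did, and the block changed no call of the 7 genes. The count was 671 when a probe had to be detected at p below 0.01, 2748 when arrays were weighted, 1828 without replicate 1 of both groups, and 555 to 1397 when 1 array was left out, with 555 without control replicate 2, 594 without control replicate 3 and 619 without double transgenic replicate 2. The cause of these shifts was not tested. Normalization moved the median of all genes to between -0.0047 and 0.13. Without background correction, and in the value table deposited by the authors, several other named genes differed less, and the 7 genes moved by 1.24-fold (Rbp4) at most. The gap of Afp to the others was 0.58 to 1.05 over alternatives chosen after seeing the data. The gap of Ttr to Rbp4 was 0.06 in the authors' value table.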
